A study of Mus musculus with 8 samples.

Results

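The 10 genes described here were taken by symbol from the 27998 genes of a single-cell survey of the mouse mammary epithelium, and each symbol matched 1 gene. *Trp63*, *Snai2*, *Zeb1*, *Zeb2*, *Srf* and *Mef2c* encode DNA-binding transcription factors, and *Myocd* encodes myocardin, a coactivator of SRF. *Vim* encodes the intermediate filament vimentin, *Gng11* a gamma subunit of heterotrimeric G proteins, and *Procr* the receptor of protein C at the cell surface. Cells were sorted as EpCAM-positive, with CD31, CD45 and Ter119 used to gate out endothelial and blood cells, from C57BL/6N females at 4 stages with 2 mice each. These were nulliparous mice 8 weeks old (NP), mice at day 14.5 of gestation (G), at day 6 of lactation (L) and at day 11 after natural weaning (PI), and each mouse gave 1 library on the droplet platform.

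The mammary duct has an inner luminal and an outer basal layer, and basal cells turn into contractile myoepithelial cells when milk has to be ejected. p63, the product of *Trp63*, holds the basal fate of stratified and glandular epithelia, and SLUG, the product of *Snai2*, works beside it in mammary basal cells. ZEB1 and ZEB2 repress E-cadherin and other epithelial genes and are typical of mesenchymal cells. SRF with its myocardin-type coactivators, and MEF2 factors, switch on the genes of the contractile apparatus. *Procr* is known as a marker of a small set of mammary basal cells with progenitor activity, and it is also a gene of endothelial cells.

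Levels are in CPM, which sets the transcripts of 1 gene against all transcripts counted. They were obtained by adding up the unique molecular identifiers (UMIs, 1 for each captured transcript) of all cells of a cluster in 1 mouse, and 51 such sums held at least 20 cells. Clusters C1 to C19 are those of the deposited annotation, which names C1 to C11 luminal (hormone-sensing, progenitor and alveolar), C12 and C13 basal, C14 myoepithelial and C15 Procr-positive basal, and sets C16 to C19 apart as non-epithelial. Clusters follow the stages closely. With at least 20 cells a mouse, C12 was found in NP and PI mice, C13 in G mice, and C14 and C15 in L mice. After filtering 25009 of 25806 barcodes remained, with 13306760 to 34552742 UMIs a mouse, and 791 barcodes shared by libraries had all been removed. The clusters were made from the same transcripts, so differences between them are given without a test. *Procr*, *Gng11* and *Zeb2* are also among the genes by which the paper named C15. The basal pool of a PI mouse was small, with 28 and 59 cells, against 283 to 4639 in the other mice.

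**Figure D1:**
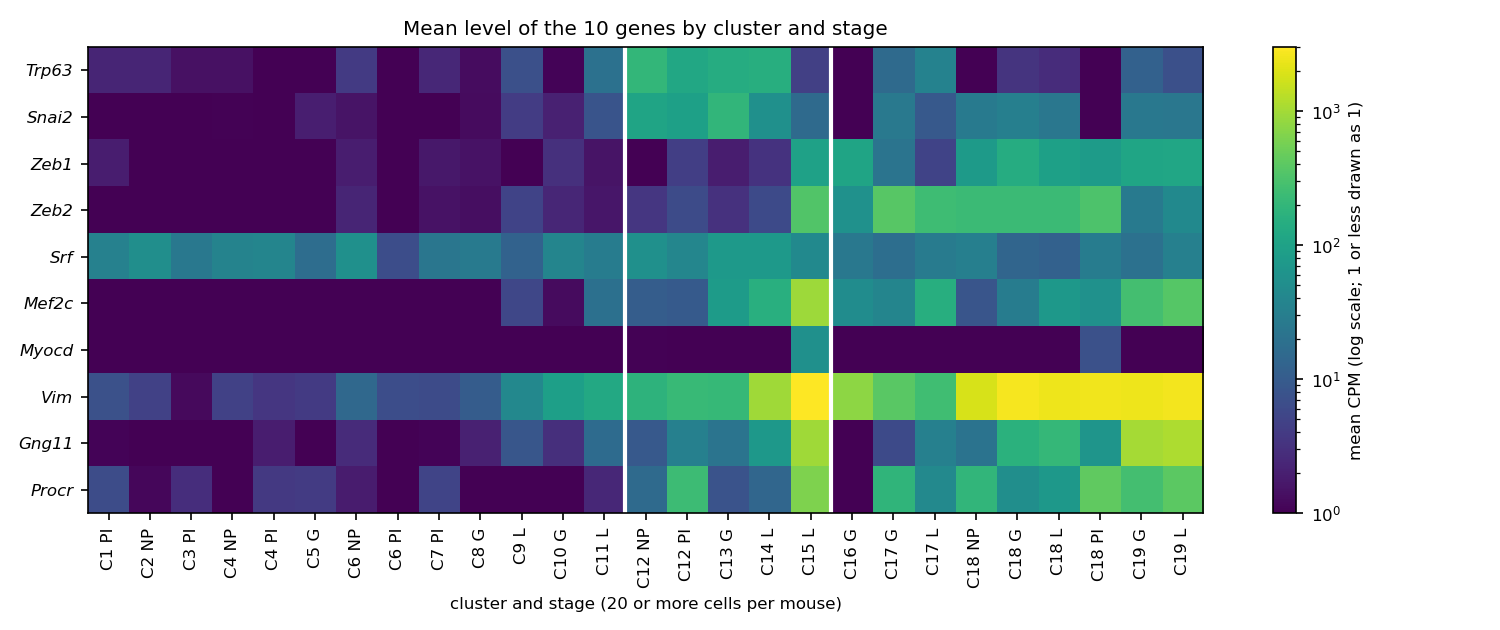
Mean level of the 10 genes (rows) in each cluster and stage (columns), in CPM on a log colour scale. Values of 1 CPM or less have the darkest colour. White lines part luminal C1 to C11, C12 to C15 (named basal or myoepithelial in the deposited annotation) and non-epithelial C16 to C19. The marker levels of C15 go against its basal name. *Trp63* and *Snai2* filled C12 to C14, *Srf* ran through nearly every column, and *Myocd* was highest in C15, with a low value in C18 of a PI mouse.

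*Trp63* and *Snai2* marked the same 3 clusters. *Trp63* was at 190 and 213 CPM in C12 of the NP mice, 118 and 167 CPM in C13, 146 and 154 CPM in C14, and 125 and 116 CPM in C12 of the PI mice. C12 of the NP mice lay above all others, while C14 and C13 overlapped, as did C13 and C12 of the PI mice. In the luminal clusters outside lactation, the level of *Trp63* ran from 0 to 4.98 CPM over 21 sums. *Snai2* was highest in C13, at 189 and 203 CPM, followed by C12 with 94.7 and 118 CPM in NP and 108 and 84.5 CPM in PI mice, which overlapped, and by C14 with 53.2 and 58.5 CPM. Outside the basal layer *Snai2* reached 39.9 CPM in the fibroblast-marked C18, whereas *Trp63* there stayed at 6.65 CPM or less and was highest in the immune-marked C17 of L mouse 1, at 53.6 CPM. That sum also held the 6 basal markers at 11914 CPM, against 3260 CPM in C17 of L mouse 2 and 42746.5 CPM in C14 of L mouse 1. The part of basal RNA in its *Trp63* level was not tested. C15 had little of either gene, with 4.66 and 4.45 CPM of *Trp63* and 13.97 and 17.8 CPM of *Snai2*.

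In lactation a trace of the basal genes also appeared in luminal cells. C11 of the L mice, which is alveolar, had *Trp63* at 12.6% and 13.8% of its level in C14 of the same mouse. *Krt5*, a basal keratin, came to 13.6% and 12.6% there, *Acta2*, smooth muscle actin, to 13.8% and 10.7%, and *Vim* to 15.4% and 10.4%. Other genes spread more widely, with *Snai2* at 19.1% and 10.1%, *Mef2c* at 15.4% and 8.94%, *Procr* at 22.4% and 10.4%, *Gng11* at 29.4% and 14.2% and *Oxtr*, the oxytocin receptor of myoepithelial cells, at 18.5% and 14.7%. *Srf* was at 37.8% and 38.9%, and *Zeb1* and *Zeb2*, at 2.35 CPM or less in C11, at 45.99% and 47.6% and at 10.3% and 71.0%. Free RNA from the many C14 cells was not tested as a source of the trace.

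*Zeb1* and *Zeb2* were rare in epithelial cells. *Zeb1* ran from 0 to 8.96 CPM in the 8 sums of C12 to C14, where the highest value was a single UMI in a PI mouse, and *Zeb2* from 2.12 to 8.96 CPM. *Zeb1* was at 79.2 and 116 CPM in C15, which overlapped with the 190 and 93.1 CPM of C18 and the 106 and 118 CPM of C19 in G mice, the latter being the endothelial-marked cluster. *Zeb2* was at 397 and 294 CPM in C15, 392 and 362 CPM in C17 of G mice and 263 and 213 CPM in C18 of G mice. The 2 paralogs parted in C17 and C19. C19 of the L mice had *Zeb2* at 45.8 and 44.3 CPM and C17 of the L mice had *Zeb1* at 5.44 and 4.47 CPM, so the first was low in endothelial-marked and the second in immune-marked cells.

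*Srf* was found across luminal, basal and non-epithelial clusters. It was at 83.2 and 69.6 CPM in C14, 74.3 and 71.4 CPM in C13, 58.1 and 54.9 CPM in C12 of the NP mice, and 62.5 and 50.2 CPM in the luminal progenitors C6 of the NP mice. C12 and C6 of the NP mice overlapped, and so did C14 and C13. The gene lies on chromosome 17 of GRCm38, from 46548329 to 46556175 on the minus strand. Its promoter is shown because SRF is known to act on its own gene through CArG boxes, the AT-rich sites that SRF binds. The window is chr17:46556176-46556412 on the minus strand, 237 bases from RefSeq (GRCm38.p6) before the annotated gene, and capitals mark the CArG boxes.
Srf promoter: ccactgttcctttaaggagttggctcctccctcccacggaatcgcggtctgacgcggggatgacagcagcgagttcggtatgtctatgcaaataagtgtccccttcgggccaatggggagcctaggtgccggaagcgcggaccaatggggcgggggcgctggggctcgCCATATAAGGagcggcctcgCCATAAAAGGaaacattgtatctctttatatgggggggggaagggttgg
The 2 boxes begin 82 and 62 bases before the RefSeq start, and 1.47% of 32851 promoter windows of 250 bases hold a CArG box on either strand. Windows were at hand for 5 of the 10 genes (*Mef2c*, *Srf*, *Zeb2*, *Vim* and *Procr*), 10 windows in all. The *Srf* window was the only one of the 10 with a CArG box, and none held the E-box CACCTG or its complement CAGGTG, which 17.2% of all windows hold.

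*Mef2c*, of the MEF2 factors, and *Myocd*, of the coactivator of SRF, were far more selective than *Srf*. *Mef2c* was at 914 and 970 CPM in C15, 403 and 327 CPM in C19 of the L mice and 268 and 288 CPM in C19 of the G mice, and these 3 groups did not overlap. C14 followed with 156 and 158 CPM, which overlapped with C17 of the L mice. It was at 97.6 and 64.5 CPM in C13 and at 6.82 and 14.2 CPM in C12 of the NP mice, and no luminal sum outside lactation exceeded 2.50 CPM. *Myocd* was at 54.3 and 57.8 CPM in C15. In all 21 luminal sums outside lactation and all 4 at lactation it was at 0, and in C12 to C14 it did not exceed 1.83 CPM. The myoepithelial C14, with 4637 and 3104 cells, had 0.994 and 0.542 CPM of *Myocd*.

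*Vim* and *Gng11* were lowest in luminal, intermediate in basal and highest in C15 and some non-epithelial clusters. *Vim* was at 3134 and 2688 CPM in C15, 2698 and 2459 CPM in C19 of the L mice and 2482 and 2445 CPM in C18 of the L mice. Its level in C15 overlapped with that in C19 and not with that in C18 of these mice. C14 had 1041 and 879 CPM, and C12 of the NP mice 189 and 161 CPM. Among luminal sums outside lactation the median was 5.80 CPM, and the highest, 97.3 CPM, was in C10, the alveolar progenitors of gestation. *Gng11* was at 1006 and 908 CPM in C15, which overlapped with the 940 and 1099 CPM of C19 in the G mice and lay below the 1105 and 1133 CPM of C19 in the L mice. It was at 85.0 and 57.9 CPM in C14 and at 4.59 CPM or less in luminal sums outside lactation.

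**Figure D2:**
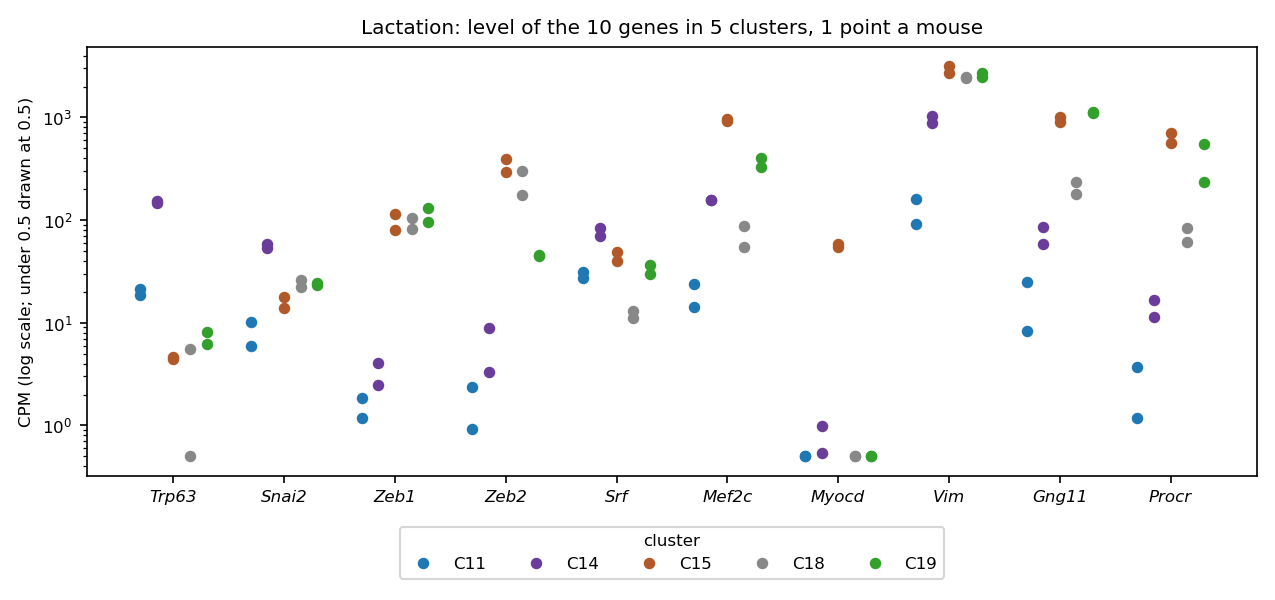
Level of each gene in the lactating mice, in CPM on a log axis (values under 0.5 drawn at 0.5), with 1 point a mouse and 5 clusters side by side (luminal C11, myoepithelial C14, C15, fibroblast-marked C18, endothelial-marked C19). C15 was below C14 for *Trp63*, *Snai2* and *Srf* and above it for the other 7 genes.

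*Procr* was at 562 and 707 CPM in C15, above every other sum at lactation. C19 of the L mice had 234 and 552 CPM, C19 of the G mice 222 and 322 CPM, and C17 of the G mice 155 and 222 CPM. The level of *Procr* in C19 of the G mice overlapped with both of the others. In C18 it was at 217 and 178 CPM in NP, 72.4 and 33.2 CPM in G, 84.4 and 60.7 CPM in L mice and 421 CPM in the 1 PI mouse with enough cells, so that NP stood above G and L without overlap. Luminal sums did not exceed 10.5 CPM. The gene, on the plus strand of chromosome 2, spans 155751117 to 155755471 in GRCm38. The 150 bases before it, chr2:155750967-155751116, are shown since *Procr* is the gene that differed in basal cells between NP and PI mice, with the AP-1 site in capitals.
Procr promoter: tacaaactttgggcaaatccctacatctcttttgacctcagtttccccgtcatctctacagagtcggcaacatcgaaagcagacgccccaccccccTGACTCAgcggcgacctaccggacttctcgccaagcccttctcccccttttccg
AP-1 is the dimer of FOS and JUN proteins, and the search was for TGAGTCA and its complement TGACTCA, which 4.46% of all windows hold. The match begins 154 bases before the RefSeq start used for the window. Of the 10 windows at hand 2 held an AP-1 match. The other was a window of *Zeb2*, with matches that begin 189 and 132 bases before its start.

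C15 carried most of the 10 genes at once, without the basal ones. The paper lists *Procr*, *Gng11* and *Zeb2* among the key genes by which it inferred the identity of C15. High levels of these genes there are therefore a description of how C15 was named and not a separate finding. Of its 205 and 57 cells, *Vim* was detected in 97.6% and 100% of them, *Gng11* in 87.3% and 94.7%, *Mef2c* in 84.4% and 91.2%, *Procr* in 66.3% and 77.2%, *Zeb2* in 65.4% and 71.9% and *Zeb1* in 22.0% and 33.3%. *Trp63* was detected in 3 and 1 of these cells. *Zeb2* was found in 67.6% and 75.0% of the C15 cells with a *Procr* UMI, against 60.9% and 61.5% of those without, at median depths of 3074 and 3679 UMIs with *Procr* and 2655 and 3753 without. The C15 cells without *Procr* numbered 69 and 13, and the difference was not tested.

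The deposited name of C15, a basal cell, was checked against markers. *Krt5* and *Krt14*, keratins of basal cells, stood at 45.02 and 97.9 CPM and at 297 and 276 CPM in C15, which is 0.0451 and 0.107 times and 0.0608 and 0.0507 times their level in C14. All 8 pericyte markers listed were detected, with a summed level of 6659 and 5647 CPM in C15 against 136 and 60.1 CPM in the basal pool of the same mice. *Rgs5* was at 4288 and 3560 CPM and *Higd1b*, another pericyte gene, at 442 and 267 CPM. The 6 endothelial markers summed to 138 and 71.2 CPM. *Acta2* and *Myh11*, which basal cells share with pericytes, were at 7376 and 8512 CPM and at 1899 and 2492 CPM. The marker levels go against a basal name, and these cells are called C15 here. The paper itself reported some pericyte markers in C15 and did not exclude that its cells are non-epithelial.

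Whether the genes change in basal cells over the pregnancy cycle was tested on UMIs of C12 to C14 pooled per mouse, in 1 fit of all 8 mice with edgeR. The stages are also clusters, so the change of a gene and the change of cell state cannot be told apart. From NP to G, 5 of the 9 testable genes rose and 2 fell (*Myocd* was too low to test), while 39.9% of all 11870 genes were called, 21% higher and 18.9% lower. From G to L, 4 rose and 1 fell, against 50.1% called (25.2% and 24.9%). From NP to L, 5 rose and 1 fell, against 62.2% called (31.7% and 30.5%). From NP to PI *Procr* was the 1 gene called, higher, against 4.47% called (1.92% higher and 2.54% lower). Of these calls 43% were higher with TMM and 61.1% with RLE size factors. The 3 comparisons with NP share the NP mice. By the vaginal smears of the paper, PI mouse 1 was in dioestrus, and PI mouse 2 and the NP mice were in oestrus. Age is given for the NP mice only, and PI mice had been through a pregnancy cycle, so age and parity cannot be told apart. The shares called among all genes are high between NP, G and L, and the counts of the 9 genes are to be read against them.

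**Figure D3:**
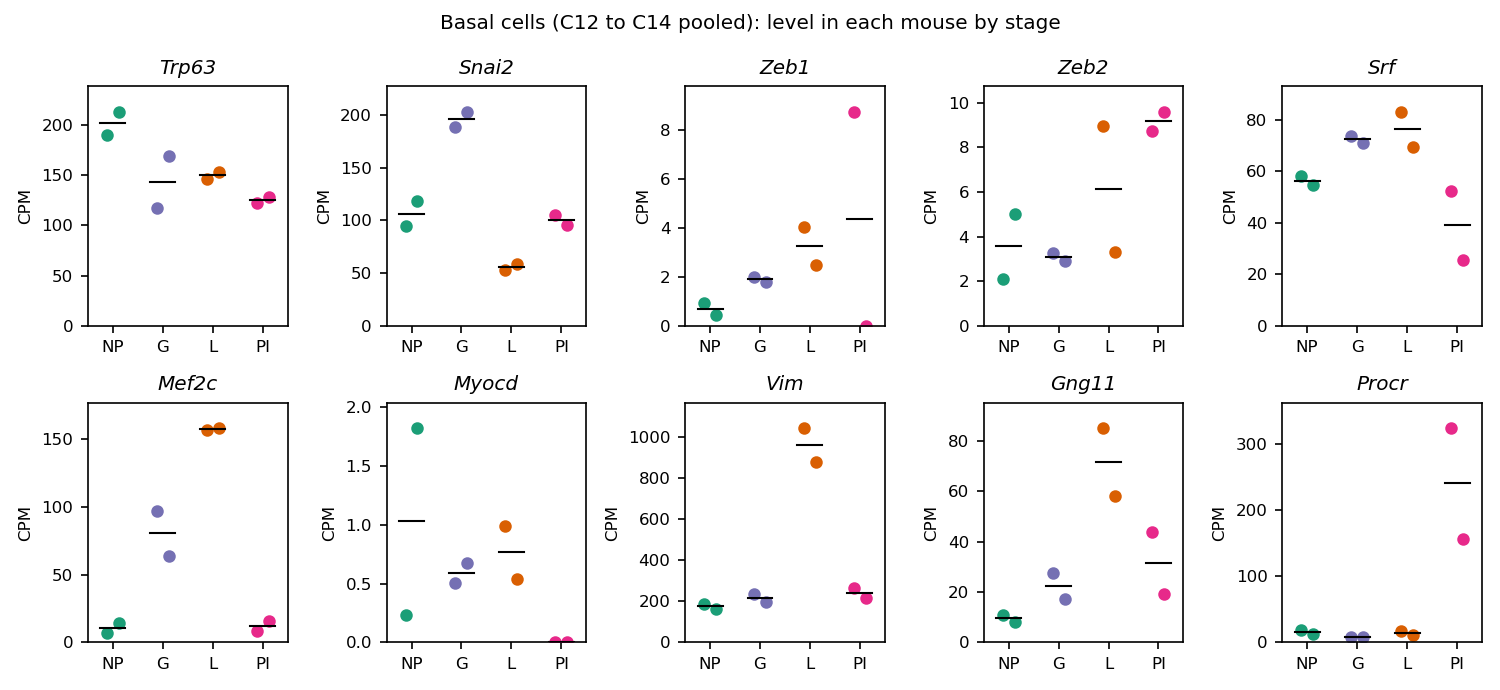
Level of each gene in the basal pool (C12 to C14) of each mouse, in CPM, by stage; points are mice, lines are means of 2 mice, and each gene has its own axis from 0. *Mef2c*, *Vim* and *Gng11* were highest at lactation, *Snai2* at gestation, and *Procr* after involution.

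*Snai2* went up and then down. Its level was 94.7 and 118 CPM in NP, 188 and 203 CPM in G, 53.3 and 58.5 CPM in L, and 105 and 96.0 CPM in PI basal cells. The G mice stood above and the L mice below all others. The log2 fold change was 0.97 (SE 0.15, adjusted p = 8.1e-05) from NP to G and -1.68 (SE 0.14, adjusted p = 7.8e-08) from G to L. *Trp63*, its partner in basal identity, was at 190 and 213 CPM in NP, 118 and 169 CPM in G, 146 and 154 CPM in L and 122 and 128 CPM in PI. NP mice were above all others, but the fall of *Trp63* to G was small, with a log2 fold change of -0.41 (SE 0.16, adjusted p = 0.0496). The call of *Trp63* was lost with DESeq2 (adjusted p = 0.16) and without any 1 of G mouse 1 (adjusted p = 0.48), NP mouse 1 (0.086) or NP mouse 2 (0.28). In PI the log2 fold change of *Trp63* against NP was -0.81 (SE 0.24, adjusted p = 0.068).

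*Mef2c* showed the widest range of the transcription factors in basal cells. It was at 6.82 and 14.1 CPM in NP, 97.1 and 63.5 CPM in G, 156 and 158 CPM in L and 8.74 and 15.99 CPM in PI mice. The 3 earlier stages did not overlap, and the PI mice overlapped with the NP mice. The log2 fold change of *Mef2c* was 3.14 (SE 0.27, adjusted p = 3.4e-07) from NP to G and 1.10 (SE 0.19, adjusted p = 1.7e-04) from G to L. *Srf* moved far less, from 58.1 and 54.6 CPM in NP to 73.9 and 71.1 CPM in G and 83.2 and 69.6 CPM in L, with 52.5 and 25.6 CPM in PI. Its log2 fold change was 0.64 (SE 0.15, adjusted p = 0.0014) from NP to L, while the rise from NP to G (0.44, SE 0.16, adjusted p = 0.035) was lost without any 1 of the 4 mice (adjusted p from 0.066 to 0.16).

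*Vim* was low until lactation. It was at 189 and 161 CPM in NP, 237 and 199 CPM in G, 1041 and 879 CPM in L, and 262 and 214 CPM in PI basal cells. From G to L the level rose 4.82-fold (log2 fold change 2.27, SE 0.15, adjusted p = 5.4e-09). The smaller rise of *Vim* from NP to G, 0.39 (SE 0.15, adjusted p = 0.046), was lost without G mouse 1 (0.315), NP mouse 1 (0.090) or NP mouse 2 (0.24). *Gng11* was at 11.0 and 8.19 CPM in NP, 27.7 and 17.1 CPM in G, 85.0 and 57.9 CPM in L and 43.7 and 19.2 CPM in PI mice. It rose at each step to lactation, by 1.24 (SE 0.30, adjusted p = 0.0040) and 1.81 (SE 0.23, adjusted p = 5.5e-06) on the log2 scale, the first of which was lost without G mouse 1 (0.070).

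The *Zeb* genes stayed near the detection limit in basal cells. *Zeb1* was at 0.940 and 0.455 CPM in NP and 4.02 and 2.47 CPM in L mice, a log2 fold change of 2.27 (SE 0.64, adjusted p = 0.0054). *Zeb2* was at 2.12 and 5.01 CPM in NP and 8.94 and 3.31 CPM in L mice, which overlap, and was not called (1.15, SE 0.51, adjusted p = 0.0605). Cells in which at least 2 genes of a single non-epithelial marker list were detected made up 9.13% and 5.65% of the basal pool of the NP mice, 38.3% and 30.0% of that of the G mice, 28.0% and 23.3% at lactation and 3.57% and 1.69% after involution. Without these cells *Zeb1* was at 0.560 and 0.481 CPM in NP and 0.754 and 0.274 CPM in L mice, which overlap, and was too low to be tested. *Vim* was at 191 and 154 CPM in NP and 998 and 818 CPM in L mice without them, and *Mef2c* at 6.72 and 14.4 CPM and at 142 and 152 CPM.

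Other markers moved along with stage in the same pools. The 8 genes of dissociation stress (*Fos*, *Jun*, *Atf3*, *Hspa1a* and others) summed to 2558 and 2404 CPM in NP, 5873 and 3518 CPM in G, 25554 and 20477 CPM in L, and 3436 and 4549 CPM in PI basal cells. From NP to L all 8 were called higher, against 31.7% of all genes. Their part in the rise of *Mef2c*, *Vim* and *Gng11* was not tested. Of the pericyte markers, 4 of 5 testable ones were called higher from NP to L, and the list summed to 18.1 and 11.8 CPM in NP and 136 and 60.1 CPM in L mice. Of the endothelial markers 5 of 6 were called higher, with sums of 18.6 and 13.7 CPM in NP and 59.8 and 28.2 CPM in L mice, and of the immune markers 3 of 4 testable ones, with sums of 91.7 and 76.0 CPM and of 148 and 127 CPM. Of the fibroblast markers 4 of 6 were called higher from NP to G, against 21% of all genes, and 2 of 6 from NP to L, against 31.7%. They summed to 177 and 264 CPM in NP and 901 and 672 CPM in G mice. *Mef2c* and *Gng11* were high in the endothelial-marked C19, and without the cells holding at least 2 genes of such a list *Gng11* was at 6.44 and 6.74 CPM in NP and 62.4 and 47.2 CPM in L mice.

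The target genes of the factors moved with stage as well. Of 18 SRF and myocardin target genes, 14 rose from NP to G and none fell, against 21% and 18.9% of all genes, with a median log2 fold change of 1.01 against 0.01 over all genes. From G to L 17 rose (median 1.47), against 25.2% of all genes. From NP to PI 7 fell and none rose, against 2.54% and 1.92% of all genes, with a median of -0.68 against -0.20. *Mylk*, myosin light chain kinase, was at 425 and 473 CPM in NP, 2661 and 1816 CPM in G and 6737 and 5656 CPM in L mice. *Synpo2*, an actin-binding protein, had the largest change, 5.65 (SE 0.24, adjusted p = 3.9e-11) from NP to L. Among 14 testable SRF cofactors and MEF2 relatives, 8 rose and 2 fell from NP to L, where 31.7% of all genes rose and 30.5% fell. *Hdac5*, which represses MEF2 factors, rose by 2.40 (SE 0.20, adjusted p = 3.3e-08), and *Fhl2*, a cofactor of SRF, fell by 1.90 on the log2 scale (SE 0.16, adjusted p = 2.6e-08).

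Genes known to be repressed by ZEB and SNAIL factors fell together over the same stages. Of 16 such genes, 11 fell and 1 rose from NP to G, against 18.9% of all genes lower and 21% higher. From G to L 10 fell and none rose, against 24.9% lower and 25.2% higher. From NP to L 13 fell and 1 rose (median log2 fold change -2.89), against 30.5% lower and 31.7% higher. None was called from NP to PI, against 4.47% of all genes. *Cldn4*, a tight junction protein, was at 396 and 246 CPM in NP, 31.2 and 42.6 CPM in G, 2.18 and 5.66 CPM in L and 560 and 323 CPM in PI mice. Over these stages *Snai2* itself was highest in G and lowest in L. Of the 6 luminal markers listed, 3 fell in the basal pool from NP to L and 3 were not called. *Epcam* and *Cldn3*, which are also among the 16 repressed genes, fell by 2.95 and 3.81 and *Krt18* by 2.74 on the log2 scale, while the log2 fold change was -0.26 for *Krt8*, 0.00 for *Krt19* and 0.43 for *Wfdc18*. The part of luminal RNA in the changes was not tested.

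Of 16 p63 target and basal adhesion genes, 11 rose and 3 fell from NP to L (median 0.94), against 31.7% and 30.5% of all genes, although *Trp63* was not called there (-0.22, SE 0.16, adjusted p = 0.23). *Krt15*, a basal keratin, rose by 1.74 (SE 0.28, adjusted p = 4.6e-05), and *Itgb4*, an integrin subunit of hemidesmosomes, fell by 1.27 on the log2 scale (SE 0.17, adjusted p = 5.8e-06). Of 18 testable cooperating transcription factors, 9 rose and 3 fell, a share called near the 62.2% of all genes. *Tcf7l1* rose by 2.43 (SE 0.21, adjusted p = 5.1e-08), and *Bcl11b*, which is known from basal stem cells, fell by 3.21 on the log2 scale (SE 0.31, adjusted p = 1.8e-07). Among 13 testable mesenchymal filament and effector genes, 9 rose and 1 fell (median 1.03), against 31.7% and 30.5% of all genes. *Des*, desmin, rose with *Vim*, by 4.30 (SE 0.45, adjusted p = 3.5e-07), and *Nes*, nestin, fell by 3.08 on the log2 scale (SE 0.30, adjusted p = 1.6e-07). Of 9 testable G protein beta and gamma subunits other than *Gng11*, 5 rose and 1 fell from NP to L (median 0.82), again a share called near the 62.2% of all genes.

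After involution *Procr* was the gene of the 10 that set basal cells apart from those of NP mice. Its level was 18.1 and 13.2 CPM in NP, 8.05 and 7.85 CPM in G, 16.6 and 11.4 CPM in L, and 323 and 157 CPM in PI basal cells. The PI mice stood far above all others. Against NP the level was 11.96-fold (log2 fold change 3.58, SE 0.32, adjusted p = 4.7e-06), and it was called in all 14 alternative settings, with log2 fold changes from 2.97 to 4.12. *Gng11* (1.25, SE 0.65, adjusted p = 0.315), *Zeb2* (1.40, SE 1.14, adjusted p = 0.545) and *Vim* (0.25, SE 0.20, adjusted p = 0.535) were not called in PI. Other values moved with the rise of *Procr* in PI basal cells. The pericyte markers, which are high in C15 as *Procr* is, summed to 78.7 and 41.6 CPM in PI against 18.1 and 11.8 CPM in NP mice, from 9 and 13 UMIs, with 4 and 5 of 8 markers detected, a median log2 fold change of 2.57 and none of 5 testable ones called. *Kcnj8*, *Abcc9* and *Higd1b* were at 0 in both PI mice. The list also holds *Notch3*, which the paper calls a luminal progenitor marker, and *Des*, whose log2 fold change is the median of 2.57. In hormone-sensing cells of PI mouse 1 *Notch3* was the only marker of the list detected, with 95 UMIs. Of the 8 stress genes 2 were called higher in PI, against 1.92% of all genes. These were *Fosb* by 1.24 (adjusted p = 0.010) and *Atf3* by 0.94 (adjusted p = 0.048). Their part in the rise of *Procr* was not tested. Between NP and G *Procr* was lower by 0.94 on the log2 scale (SE 0.32, adjusted p = 0.026), and between G and L higher by 0.95 (SE 0.28, adjusted p = 0.0091). The first was lost without any 1 of G mouse 1, G mouse 2 and NP mouse 1 (adjusted p from 0.089 to 0.30), and without the cells holding non-epithelial markers (0.059). The second was lost without L mouse 1 (0.063) or G mouse 2 (0.062), and without those cells (0.13).

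The *Procr* UMIs of the PI mice lay in few cells. A *Procr* UMI was found in 6 of 28 and 13 of 59 basal cells, 21.4% (95% exact binomial interval 8.30% to 41.0%) and 22.0% (12.3% to 34.7%), against 6.55% and 6.01% of those of NP mice, 3.22% and 4.47% at gestation and 4.38% and 3.48% at lactation. Intervals cover counting error only. Median depth was 3854 and 4427 UMIs in PI and 6046 and 6304 UMIs in NP basal cells. In luminal cells of the PI mice the share was 1.63% and 1.89%, at 7293 and 5879 UMIs. Thinned to 1000 UMIs a cell, the share was 14.3% and 6.78% in PI and 1.79% and 0.353% in NP basal cells, and 0.213% and 0.491% in PI luminal cells. A single cell held 23 of 37 *Procr* UMIs in PI mouse 1 and 12 of 49 in PI mouse 2. Without the highest cell of each mouse, a setting chosen after seeing the data, the level was 127 and 121 CPM in PI and 12.9 and 11.4 CPM in NP, with a log2 fold change of 3.19 (SE 0.33, adjusted p = 2.8e-05).

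**Figure D4:**
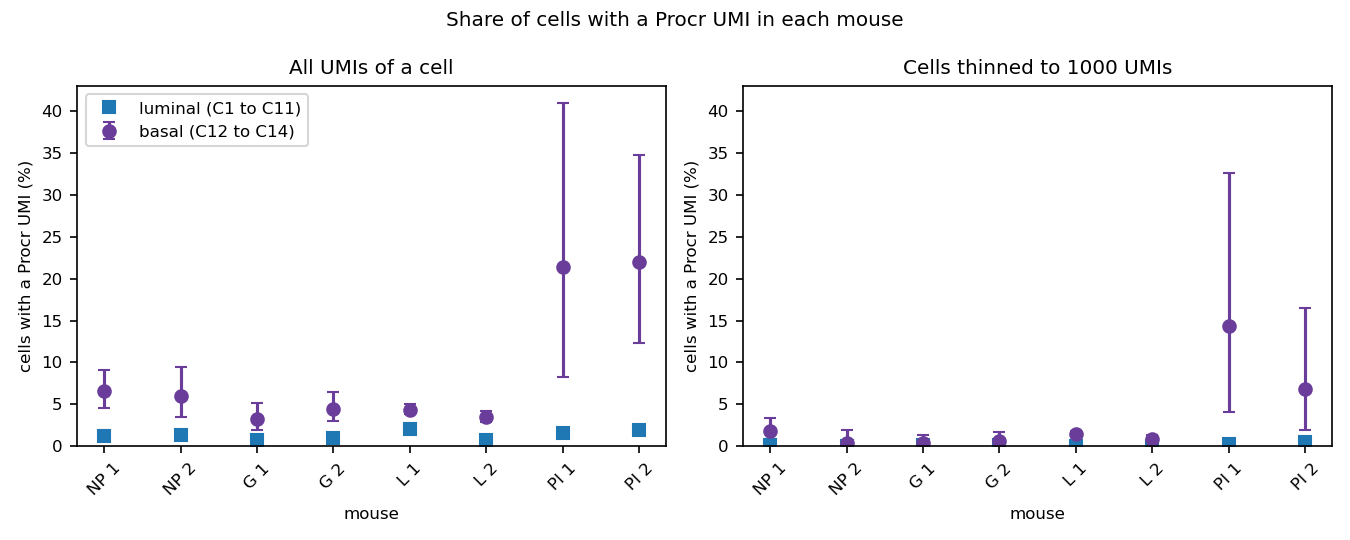
Share of cells with a *Procr* UMI in each mouse, in percent, for basal (C12 to C14, with 95% exact binomial intervals) and luminal cells (C1 to C11), with all UMIs (left) and thinned to 1000 UMIs a cell (right). Both PI mice had a higher share in basal cells than the other 6 mice.

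The *Procr*-holding basal cells of the PI mice had *Krt14* and *Acta2*, with lower values of *Trp63*. They numbered 6 and 13, and their pooled values do not describe a single cell. Together they had *Krt14* at 5188 and 3404 CPM, against 5684 and 4779 CPM in the basal cells without *Procr*, and *Acta2* at 2615 and 2097 CPM against 2881 and 3137 CPM. *Trp63* was at 40.9 and 80.2 CPM in them, from 1 and 7 UMIs, against 145 and 146 CPM in the cells without *Procr*. *Epcam* was at 654 and 2063 CPM against 1257 and 1713 CPM. In the whole basal pool of the PI mice, 5 of the 6 endothelial markers were at 0, *Pecam1* and *Cdh5* among them. *Eng* had 1 and 5 UMIs. These pools hold 114382 and 312628 UMIs in all, and in NP pools the 6 markers summed to 18.6 and 13.7 CPM. At such levels a marker can be missed in pools of this depth. Of the 6 immune markers 5 were at 0, *Ptprc* among them, and *Cd74*, of antigen presentation, had 95 and 9 UMIs, which is 830.5 and 28.8 CPM against 88.4 and 66.5 CPM in NP mice (log2 fold change 1.81, SE 0.65, adjusted p = 0.128). *Rgs5* had 1 and 2 UMIs in the *Procr*-holding cells and 1 and 0 in the others. *Zeb2* had 1 and 3 UMIs in them and 0 in the others, and *Gng11* had 5 and 4 against 0 and 2, while the *Procr*-holding cells had 21.4% and 27.9% of all UMIs of the pool. These counts are too few for a comparison of levels.

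In NP mouse 1 and the L mice, *Procr*-holding basal cells held much of the UMIs of some genes that are high in other cells. In NP mouse 1 they had 9.68% of the UMIs of the pool but 18 *Cdh5* UMIs against 0 in the other basal cells, 8 *Pecam1* UMIs against 6 and 18 *Rgs5* UMIs against 15. In L mouse 1 they had 5.98% of the UMIs but 835 *Rgs5* UMIs against 774, and 70 *Zeb2* UMIs against 119. In L mouse 2 they had 4.74% of the UMIs and 20 *Zeb2* UMIs against 35. *Zeb2* is 1 of the 10 genes and not a listed marker, and counts of NP mouse 2 and the G mice are not given. The genes named differ between the mice, and counts of the other markers are not given, so no cell type is read from them. The cells were split by *Procr* after its values were seen, so these counts are a description.

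The protein C and plasminogen activator genes were also followed in basal cells. Of 10 testable genes of the list, 5 fell and 1 rose from NP to G, against 18.9% and 21% of all genes. From NP to L 7 fell and 2 rose, against 30.5% and 31.7%. From NP to PI *F3*, tissue factor, rose by 1.32 on the log2 scale (adjusted p = 0.020). None fell there, against 2.54% of all genes lower and 1.92% higher. *F3* was named after its values were seen. *Plaur*, the urokinase receptor, was at 269 and 233 CPM in NP, 52.6 and 72.9 CPM in G, 33.7 and 49.1 CPM in L and 455 and 387 CPM in PI basal cells. *Plat*, tissue plasminogen activator, was at 79.0 and 50.5 CPM in NP, 10.6 and 10.8 CPM in G, 9.13 and 6.38 CPM in L and 96.2 and 125 CPM in PI mice. Both genes were lower in G and L than in NP and PI mice without overlap. *Thbd*, thrombomodulin, with which thrombin activates protein C, did not exceed 6.15 CPM in any mouse.

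The change from NP to PI was also tested in luminal cells. In luminal progenitors (C6 and C7) 6 of the 10 genes could be tested and 1 was called, against 26.9% of all genes. *Srf* fell from 62.5 and 50.1 CPM in NP to 22.0 and 23.3 CPM in PI mice, without overlap (log2 fold change -1.24, SE 0.16, adjusted p = 2.4e-04). *Procr* was at 1.21 and 2.48 CPM in NP and 2.78 and 7.73 CPM in PI mice and was not called (1.66, SE 0.63, adjusted p = 0.073), except without PI mouse 1 (0.00555). *Vim* was at 9.66 and 19.9 CPM in NP and 3.05 and 9.60 CPM in PI mice and was not called either (-1.08, SE 0.48, adjusted p = 0.116), except without NP mouse 1 (0.036) or PI mouse 2 (0.0012).

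In differentiated hormone-sensing cells (C3 and C4) 4 genes could be tested and 2 were called, against 14.3% of all genes. *Procr* was at 0.783 and 1.24 CPM in NP and 1.92 and 3.67 CPM in PI mice (log2 fold change 1.56, SE 0.45, adjusted p = 0.039), and *Vim* at 3.84 and 5.57 CPM in NP and 0.548 and 2.24 CPM in PI mice (-1.42, SE 0.425, adjusted p = 0.046). Neither pair of groups overlapped, at levels of a few CPM. The 6 basal markers summed to 126 and 54.0 CPM in these NP pools and to 15.6 and 23.4 CPM in the PI pools. Of 5 testable ones 4 were called lower and none higher, against 14.3% of all genes called. The part of basal RNA in the fall of *Vim* was not tested. *Procr* was not called without NP mouse 1 (adjusted p = 0.265), NP mouse 2 (0.0655) or PI mouse 2 (0.57), and *Vim* not without NP mouse 2 (0.26). With DESeq2 neither was called (adjusted p = 0.197 and 0.0963), and in cells thinned to 1000 UMIs both were too low to test. *Srf* was at 41.9 and 29.2 CPM in NP and 29.0 and 22.0 CPM in PI mice and was not called (-0.57, SE 0.185, adjusted p = 0.0615), except without NP mouse 2 (0.0235) or PI mouse 1 (0.0078).

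Whether these changes differ between cell types was tested by interaction terms with the mouse in the fit. Between basal cells and luminal progenitors none of 9 genes was called with edgeR, against 5.17% of all genes, although *Vim*, *Procr* and *Gng11*, 3 genes, had an unadjusted p under 0.05, and DESeq2 also called none. *Procr* had a log2 difference of 1.90 (SE 0.85, adjusted p = 0.221), and was called without PI mouse 2 (3.34, adjusted p = 0.0153). Between basal and hormone-sensing cells *Vim* was called, with 1.66 (SE 0.48, adjusted p = 0.041) against 4.53% of all genes, and *Procr* was not (2.02, SE 0.64, adjusted p = 0.0715), except without NP mouse 1 (0.0080) or PI mouse 2 (0.0084). Between luminal progenitors and hormone-sensing cells *Srf* was called, with -0.66 (SE 0.22, adjusted p = 0.040) against 14.4% of all genes. The call of *Vim* was lost without NP mouse 2 or PI mouse 1, and that of *Srf* without NP mouse 1, NP mouse 2 or PI mouse 1. A rise of *Procr* particular to basal cells was not shown by these tests.

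Over the 51 sums the genes fell into groups by their levels, given here as Pearson correlations of log2(CPM + 1) without a test, since sums share mice and cluster definitions. *Mef2c*, *Vim* and *Gng11* had correlations of 0.87 with one another, *Zeb1* and *Zeb2* of 0.85, *Procr* and *Gng11* of 0.80 and *Trp63* and *Snai2* of 0.74. The 3 genes most like each member, among 13232 genes of at least 10 CPM in a sum, are given. For *Trp63* they were *Gm21190* (0.94), *Cdh3* (0.92), which encodes P-cadherin, and *Col17a1* (0.91), and for *Snai2* *Vwa1* (0.90), *Layn* (0.87) and *Mark1* (0.87). For *Procr* they were *Il6*, encoding interleukin 6 (0.945), *Lrrc32* (0.88) and *Gjc1* (0.87). For *Vim* they were *Dpysl2* (0.92), *Sparc* (0.91) and *Slc43a3* (0.91), for *Gng11* *Eml1* (0.92), *Fabp4* (0.91) and *Ndufa4l2* (0.91), and for *Mef2c* *Filip1* (0.91), *Ccnd2* (0.89) and *Itga1* (0.88). *Zeb1* was closest to *Tfpi* (0.92), *Calcrl* (0.92) and *Mndal* (0.90), and *Zeb2* to *Pid1* (0.92), *Fgl2* (0.90) and *AI607873* (0.90). *Myocd*, whose values rest on C15, was closest to *Dgkg* (0.95), *RP23-216D14.4* (0.92) and *Ryr2* (0.91). *Srf* was closest to *U2af2* (0.71), *Micall1* (0.69) and *Seh1l* (0.69), the lowest of these values.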

How the data were processed

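Cells of 8 libraries, each from 1 mouse, were analysed. Per the labels and the methods of the study, the authors made the deposited UMI counts with Cell Ranger (the submitters' processing notes name STAR) on the mm10 genome, without normalisation between libraries. The deposited annotation gives quality flags, clusters and the mitochondrial share of each cell as a fraction; it was joined by library and barcode, and 1 barcode and 1 annotated cell found no partner. The UMI total given there was another than that of the matrix for 1096 cells. Cells that passed all flags were used, and neither clusters nor doublet calls were made again; the authors marked C20 as doublets and it was left out. Annotated coordinates are GENCODE M21 on GRCm38.

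UMIs were summed per mouse over C12 to C14, C6 and C7, or C3 and C4, and tested with edgeR 4.0.16 in R 4.3.3 (TMM, filterByExpr with a minimum count of 10 and a minimum total of 15, quasi-likelihood F-test, Benjamini-Hochberg adjustment over all genes, threshold 0.05). The basal fit held all 8 mice (4 residual and 12.9 prior degrees of freedom). Cells were not used as replicates. The test was checked on simulated counts. Alternatives were DESeq2 1.42.0, RLE size factors, no filter, cells thinned to 1000 UMIs, other pools, a replicate block and each mouse left out. Python 3.11.15, numpy 2.4.6, scipy 1.17.1, pandas 2.3.3 and matplotlib 3.10.9 served for the rest.

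The genes, lists and tests were chosen with earlier results of these data known. The genes named are the 10 members, of each pathway list at most the 4 with the largest change past a basal test, the 3 genes most like each member, and marker genes. List members share C14 and stage with the members and are no independent evidence.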

Additional observations from a re-analysis of the deposited data

Results flagged for a closer look

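The change of *Vim* from NP to PI differed between basal and differentiated hormone-sensing cells by the test of the difference itself, with a log2 difference of 1.66. The change of *Srf* differed in the same way between luminal progenitors and hormone-sensing cells, with -0.66. Both calls were lost with DESeq2 (adjusted p = 0.0536 and 0.152), in thinned cells (0.885 and 0.737) and without the mouse term (0.19 and 0.12). *Vim* was also lost without NP mouse 2 (0.13) or PI mouse 1 (0.092), and *Srf* without NP mouse 1 (0.20), NP mouse 2 (0.34) or PI mouse 1 (0.11). Basal markers went the same way as *Vim* in the difference between basal and hormone-sensing cells. Of the 6 listed, 4 were called higher and none lower there, against 4.53% of all genes called. The part of basal RNA in the call of *Vim* was not tested. Groups of 2 mice are too small for a test of outlying mice.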

How the results depend on the processing

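The number of the 10 genes called from NP to G in basal cells (7) was 3 in thinned cells, 4 with C15 added, and 2 to 5 without 1 mouse. From NP to PI it was 1, and 2 with no filter, with the replicate block and with the main basal cluster only, where *Trp63* joined *Procr*. In luminal progenitors it was 1, but 3 with no filter and with the replicate block, and 1 to 2 without 1 mouse. In hormone-sensing cells it was 2, but 0 with DESeq2 and in thinned cells, 4 with no filter, and 1 to 4 without 1 mouse. The difference between basal cells and luminal progenitors had 0 calls, 1 with no filter, and 0 to 2 without 1 mouse, and *Procr* turned to -2.46 there in thinned cells (adjusted p = 0.731). Between basal and hormone-sensing cells it had 1 call, 0 with DESeq2, in thinned cells and with no mouse term, 3 with no filter, and 0 to 2 without 1 mouse. Between luminal progenitors and hormone-sensing cells it had 1 call, 0 with DESeq2, with no filter, in thinned cells and with no mouse term, and 0 to 1 without 1 mouse. The cause of these changes was not tested.

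Of 345 fold changes under alternatives, 279 kept direction and side of the threshold, 47 lost the call, 18 gained it and 1 reversed. Of 22 levels, 16 moved by less than 1 SD. Over all genes, calls fell in thinned cells from 4739 to 1714 (NP to G), from 5949 to 2838 (G to L), from 7385 to 3643 (NP to L) and from 530 to 245 (NP to PI), and the last was 877 with no filter. Without PI mouse 2 it was 106, without NP mouse 1 321 and without NP mouse 2 303, and from NP to G 2558 without NP mouse 1. With RLE size factors the median of all genes moved from 0.02 to 0.14 (NP to L) and from -0.20 to -0.08 (NP to PI), and the share of higher calls from NP to PI from 43% to 61.1%. In luminal progenitors 2892 calls became 1589 with DESeq2, 932 in thinned cells and 1704 without NP mouse 1, and in hormone-sensing cells 1714 became 483 in thinned cells, 1107 without NP mouse 1 and 928 without NP mouse 2. The differences between cell types had 619 calls (basal and luminal progenitors; 278 thinned, 352 with no mouse term, 37.5% higher and 51.5% with RLE), 543 (basal and hormone-sensing; 157, 277, 45.3% and 56.2%) and 1726 (both luminal; 413, 970, and 828 with DESeq2). Correlations of deviations between mice of the same number ran from -0.043 to 0.016. They showed no pairing of the mice by number, but with 2 mice a stage and small PI pools they cannot exclude one. The replicate block is given as an alternative only.

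With 2 mice a group and 28 and 59 basal cells in PI mice, *Zeb1*, *Zeb2* and *Myocd* there rest on 3 UMIs or fewer a mouse, and no difference in them was detectable at this depth.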
